A study of Mus musculus with 16 samples.

Results

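A set of 10 genes that govern whether a cell passes from rest into DNA synthesis was followed through accessible chromatin in mouse gonocytes, the male germ cells before spermatogenesis begins. The genes were given as a list by name, and no measured value enters the rule: *Rb1*, the CDK inhibitor genes *Cdkn1a*, *Cdkn1b*, *Cdkn1c* and *Cdkn2b*, the D-type cyclin genes *Ccnd1*, *Ccnd2* and *Ccnd3*, and the E-type cyclin genes *Ccne1* and *Ccne2*. They are 10 of the 21887 protein-coding genes of the RefSeq annotation on the assembled chromosomes. For each gene, the ATAC-seq peaks that overlapped its bounds plus 10 kb on each side, here called its window, were counted. ATAC-seq cuts accessible DNA with a transposase, and a peak is a stretch of DNA that was cut often.

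Male germ cells were taken from Mvh-Venus reporter mice that were *Morc1* (+/-), here het, or *Morc1* (-/-), here KO, at the embryonic stages E13.5 and E16.5, on the day of birth (P0) and at P3. The reporter marks germ cells by expression from the *Mvh* (*Ddx4*) gene. The 16 samples make 8 groups of 2, and there is no group with 2 intact *Morc1* alleles. One peak list was deposited per group, holding positions only, so the values below carry no replicate spread and no test of stage or genotype could be made. The P0 lists of the 2 genotypes were identical, as were the P3 lists, which leaves 6 distinct lists and allows genotypes to be compared at the fetal stages alone. The lists held 39559 to 67258 peaks (E13.5 KO and P0), and the read depth behind them is unknown. Of 10 germ cell marker genes, 7 to 8 had a peak at the start in each list, beside 59.5% to 63.9% of all protein-coding genes. *Ddx4*, *Dazl* and *Dnd1* were among those with one in all 6 lists, whereas *Tdrd1* and *Piwil2* had one in none and *Dppa3* in 2. Of 24 marker genes of testicular somatic, endothelial and blood cells, 6 to 8 had a peak at the start in each list. *Cldn11*, *Cyp11a1*, *Kdr*, *Myh11* and *Tek* had one in all 6 lists, and none of the 4 blood genes had one in any. The part of such cells in the results below was not tested.

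In the textbook pathway, D-type cyclins activate CDK4 and CDK6, which phosphorylate the retinoblastoma protein RB1 and so release E2F transcription factors. Among the E2F targets are the E-type cyclins, which activate CDK2 and start DNA synthesis. The Cip/Kip inhibitors, encoded by *Cdkn1a* (p21), *Cdkn1b* (p27) and *Cdkn1c* (p57), block cyclin-CDK complexes, whereas the Ink4 inhibitor encoded by *Cdkn2b* (p15) binds CDK4 and CDK6. Male mouse germ cells divide until shortly after they enter the fetal testis, then stop in mitotic arrest through birth and resume division in the days after it. E13.5 therefore lies at the onset of arrest, E16.5 and P0 within it and P3 around its end.

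The sequence before the transcription start is shown for the genes with a RefSeq promoter window, because a peak in every list overlapped 5 of the 7 windows and because 2 of these genes have another start that no peak reached. Windows matched for 5 of the 10 genes (GRCm38.p6); *Rb1*, *Cdkn1c*, *Ccnd1*, *Ccnd2* and *Ccne2* had no match. Each line gives the 250 bases before a start, 5′ to 3′ on the strand of the gene. *Cdkn1a* start 1 is chr17:29090729-29090978 (plus strand) and start 2 is chr17:29093519-29093768 (plus). *Cdkn1b* is chr6:134920151-134920400 (plus), *Cdkn2b* is chr4:89311033-89311282 (minus) and *Ccne1* is chr7:38107491-38107740 (minus). *Ccnd3* start 1 is chr17:47504801-47505050 (plus) and start 2 is chr17:47593217-47593466 (plus). Capitals mark exact matches on either strand. The GC box was searched as GGGCGG. The CCAAT box was searched by the letters of its name. The cyclic AMP response element, CRE, was searched as TGACGTCA.
*Cdkn1a*, start 1: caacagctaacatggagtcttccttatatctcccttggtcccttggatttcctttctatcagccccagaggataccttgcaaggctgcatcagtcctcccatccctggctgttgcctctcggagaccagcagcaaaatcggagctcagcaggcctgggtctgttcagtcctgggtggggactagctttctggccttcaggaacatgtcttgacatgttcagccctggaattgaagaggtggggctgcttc
*Cdkn1a*, start 2: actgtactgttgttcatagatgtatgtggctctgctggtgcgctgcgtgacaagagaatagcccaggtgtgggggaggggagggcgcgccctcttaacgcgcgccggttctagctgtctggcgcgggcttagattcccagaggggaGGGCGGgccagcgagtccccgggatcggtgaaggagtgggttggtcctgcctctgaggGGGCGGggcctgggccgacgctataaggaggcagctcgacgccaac
*Cdkn1b*: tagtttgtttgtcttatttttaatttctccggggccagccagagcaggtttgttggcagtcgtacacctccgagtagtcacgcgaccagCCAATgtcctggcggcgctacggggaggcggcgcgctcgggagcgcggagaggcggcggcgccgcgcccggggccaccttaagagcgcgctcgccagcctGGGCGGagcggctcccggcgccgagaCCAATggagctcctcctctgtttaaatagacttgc
*Cdkn2b*: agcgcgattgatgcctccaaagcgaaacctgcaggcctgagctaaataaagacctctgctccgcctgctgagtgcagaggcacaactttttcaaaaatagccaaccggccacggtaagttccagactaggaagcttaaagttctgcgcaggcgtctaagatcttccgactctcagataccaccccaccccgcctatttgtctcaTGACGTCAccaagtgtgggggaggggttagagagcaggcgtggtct
*Ccnd3*, start 1: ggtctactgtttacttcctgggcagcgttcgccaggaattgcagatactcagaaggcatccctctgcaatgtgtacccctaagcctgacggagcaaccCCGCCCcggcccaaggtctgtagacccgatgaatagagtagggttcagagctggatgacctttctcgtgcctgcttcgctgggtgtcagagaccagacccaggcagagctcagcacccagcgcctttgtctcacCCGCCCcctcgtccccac
*Ccnd3*, start 2: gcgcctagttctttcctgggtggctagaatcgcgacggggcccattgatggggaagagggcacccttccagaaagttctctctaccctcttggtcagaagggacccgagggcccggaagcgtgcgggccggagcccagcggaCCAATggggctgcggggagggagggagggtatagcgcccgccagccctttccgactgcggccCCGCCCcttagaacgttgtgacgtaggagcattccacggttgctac
*Ccne1*: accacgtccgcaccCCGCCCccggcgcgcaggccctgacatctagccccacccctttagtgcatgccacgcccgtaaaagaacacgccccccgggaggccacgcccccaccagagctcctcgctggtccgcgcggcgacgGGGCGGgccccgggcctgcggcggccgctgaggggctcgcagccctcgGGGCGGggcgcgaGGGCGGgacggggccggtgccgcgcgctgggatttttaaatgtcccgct

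A GC box was found in 5 of these 7 windows, with 4 at *Ccne1*. Among the 21263 promoter windows of protein-coding genes of the same length, 42.6% held one. A CCAAT box was found in 2 of the 7, *Cdkn1b* and *Ccnd3* start 2, against 35.4% of all windows. The CRE was found at *Cdkn2b* alone, and in 1.92% of all windows. The E2F words TTTCCCGC, TTTGGCGC, TTTCGCGC and TTTGCCGC (2.35% of all windows), the TATA box TATAAA (11.6%) and the E-box CACGTG (6.63%) were in none of the 7. A match is a description of these letters only.

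Most of the 10 genes had a peak near a transcription start or outer end at every stage examined. A start peak, meaning a peak within 1000 bp of a RefSeq transcription start or, for the 5 genes without one, of either outer end of the gene, was present in all 6 lists for 8 of the 10 genes. Among all protein-coding genes 54.0% had a start peak in all 6 lists. In single lists the genes numbered 8 of 10 each time, beside 60.2% (E13.5 het), 60.7% (E13.5 KO), 61.1% (E16.5 het), 62.0% (E16.5 KO), 63.9% (P0) and 59.5% (P3) of all genes. The remaining genes, *Ccnd1* and *Ccnd2*, had a start peak in none of the lists, as had 31.8% of all genes. Of all protein-coding genes, 14.1% had a start peak in some of the lists only, and none of the 10 genes did. At this distance, presence of a start peak did not differ between stages or genotypes for any of the 10 genes. *Ccnd1* had regions just beyond it, 1479, 1750 and 1816 bp from an outer end, and none of them was in all 6 lists. A distance above 1000 bp was not tried.

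At *Cdkn1a* and *Ccnd3* the accessible start was the same one of 2 in every list. The start 2 window of *Cdkn1a* printed above was covered over all 250 bases in each list, and start 1 had no peak within 1000 bp in any. *Ccnd3* start 2 was covered over 241 (E13.5 KO) to 250 bases, and start 1 had no peak within 1000 bp in any list. The covered windows of *Cdkn1a* and *Ccnd3* each held 19 CpG dinucleotides and 64.8% G and C, whereas the windows without a peak held 2 (*Cdkn1a*, 54.0% G and C) and 11 (*Ccnd3*, 59.6%). Over the starts of all protein-coding genes, the median was 17 CpG dinucleotides for 11180 starts with a peak in all 6 lists and 2 for 7180 starts with a peak in none. The *Ccne1* window, with 34 CpG dinucleotides, was covered in full in every list.

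At *Cdkn2b* the peak covered less of the window and moved between lists. It reached 31 bases into the 250 in E13.5 het cells, 102 in E13.5 KO, 142 in E16.5 het, 111 in E16.5 KO and 28 at P3, and the reach at P0 lay between those of the E16.5 lists. The CRE, whose first base lies 46 bases before the start (chr4:89311071-89311078), was inside the peak in 4 lists, E13.5 KO, both E16.5 lists and P0, and outside it in E13.5 het and P3. Peaks have a fixed width, so this shows where the peak was centred and not how far accessibility extended. At *Cdkn1b* the peak covered 95 (P0) to 176 (E16.5 KO) bases of the window.

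Outside the starts, the peaks called in the windows differed between stages, and most of the difference was at *Rb1* and *Ccnd3*. The 10 windows together held 25 peaks in E13.5 het, 28 in E13.5 KO, 17 in E16.5 het, 19 in E16.5 KO, 16 at P0 and 17 at P3. The ratio of E16.5 to E13.5 was 0.68 in het cells (95% Wilson interval 0.371 to 1.25, counting error over peaks only) and 0.679 in KO cells (0.382 to 1.21). Peaks in the windows of all protein-coding genes changed by ratios of 1.02 and 1.08, and the whole lists grew by 1.33 and 1.44. Both intervals include 1 and the ratio of all windows. They treat peaks as independent, whereas the 2 lists share regions and peaks cluster within genes, so they do not measure the uncertainty of the change. From P0 to P3 the ratio was 1.06 (0.544 to 2.08), beside 0.799 in the windows of all protein-coding genes and 0.665 for the whole lists, and the interval includes 1 and the 0.799. Per 10000 peaks of the list it was 1.6, and with 25 kb on each side 0.8. Without *Rb1* and *Ccnd3* it was 0.818. Without *Rb1* and *Ccnd3*, the 2 longest genes, the E13.5 and E16.5 counts were 13 and 12 in het cells and 14 and 14 in KO cells, so no fall was left in KO cells. With 25 kb on each side the E16.5 to E13.5 ratios were 0.897 and 0.93.

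Counted by gene, 3 of the 10 (*Rb1*, *Cdkn1a* and *Ccnd3*) held fewer peaks at E16.5 than at E13.5 in both genotypes, beside 13.3% of all protein-coding genes, and 1 (*Ccne1*) held more, beside 14.9%. The *Cdkn1a* difference in het cells became 0 both with no margin and with 25 kb on each side, and that of *Ccne1* became 0 with no margin. The number was the same in both genotypes for 3 (*Cdkn1b*, *Cdkn1c* and *Ccne2*), beside 41.4%, and for *Cdkn1c* and *Ccne2* it was the same in all 6 lists, beside 17.2%. At P0, 1 gene (*Ccnd2*) held fewer peaks than in both E16.5 lists, beside 8.99% of all genes, and 0 held more, beside 17.9%. From P0 to P3, 2 genes (*Rb1* and *Ccnd3*) gained peaks, beside 8.15%, and 2 (*Cdkn1b* and *Ccnd1*) lost peaks, beside 30.5%. At P3, 7 genes held fewer peaks than in both E13.5 lists, beside 20.0% of all genes, and 1 (*Ccne1*) held more, beside 12.7%. Of the 7, *Cdkn1a*, *Cdkn1b* and *Cdkn2b* differed only by a region outside the gene bounds, as did *Ccne1*. The 20.0% is of all genes, also those with no E13.5 peak to lose. A peak was held by 76.3% (E13.5 het) and 76.0% (E13.5 KO) of them. The median window held 2 peaks in both E13.5 lists and 1 at P3, and the median over all genes was 1 in these 3 lists.

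**Figure D1:**
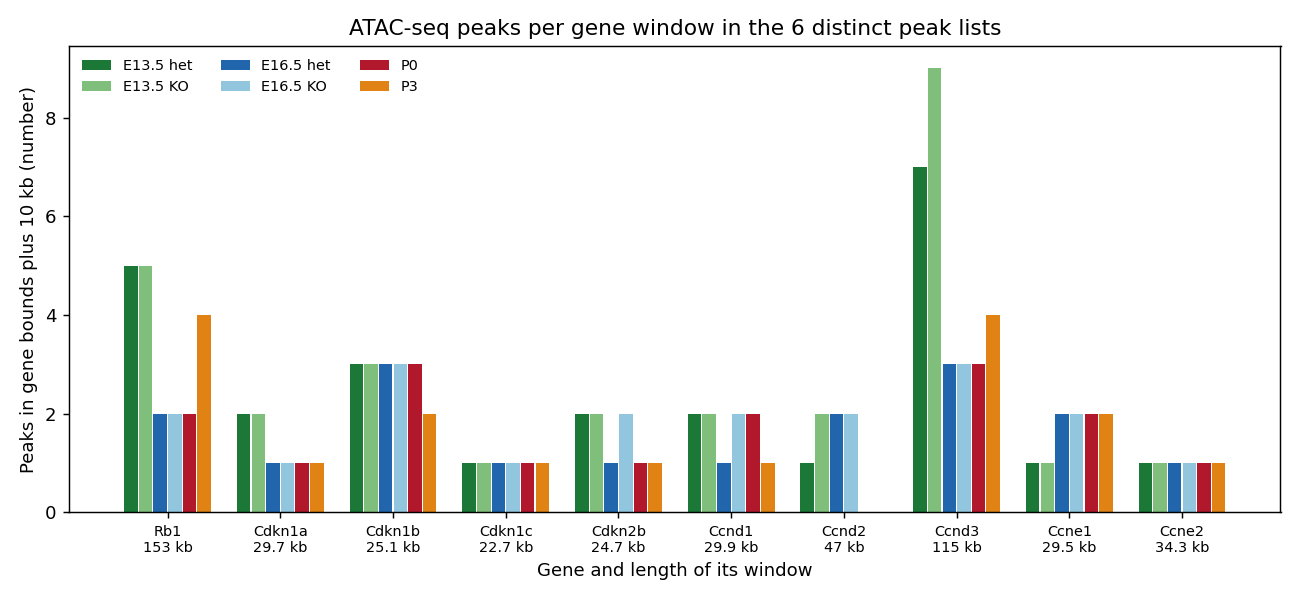
Bars give the number of ATAC-seq peaks (vertical axis) in the window of each of the 10 genes (horizontal axis, with the window length in kb), 1 bar per distinct peak list and no error bar because there is 1 list per group. Ccnd3 stands at 7 and 9 peaks in the E13.5 lists and at 3 to 4 later, Rb1 at 5 in both E13.5 lists, 2 at E16.5 and P0 and 4 at P3, and Ccnd2 at 0 at P0 and P3.

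*Rb1* encodes the pocket protein that holds back E2F factors. It lies on chromosome 14 (73192858 to 73325951, GRCm38), and its window held 5 peaks in E13.5 het, 5 in E13.5 KO, 2 in E16.5 het, 2 in E16.5 KO, 2 at P0 and 4 at P3. The count was thus lowest in the lists from arrested cells in both genotypes. The peak at the upper outer end of the gene (73325736 to 73326236 in E13.5 het) was in all 6 lists, with centres within 83 bp of each other. Inside the gene, 2 regions at 73219491 to 73220032 and 73231446 to 73231992 were in both E13.5 lists and in no later list.

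Further sites inside *Rb1* held peaks at E13.5 and again at P3. A region at 73301726 to 73302401 was in the E13.5 KO and P3 lists and in no E16.5 or P0 list, and E13.5 het cells had a peak nearby at 73303174 to 73303674 instead. The other lay at the lower outer end of *Lpar6*, a lysophosphatidic acid receptor gene within the *Rb1* bounds, where both E13.5 lists and the P3 list held a peak (73237793 to 73238293 in E13.5 het). The E16.5 KO list held a peak at 73238208 to 73238708 that overlapped these at its edge, and the E16.5 het and P0 lists held none. Above the gene, a region at 73334905 to 73335514 was in the E16.5 het, P0 and P3 lists and absent from both E13.5 lists and from E16.5 KO.

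*Ccnd3*, the D-type cyclin gene with the longest window, showed the largest count among the 10 at E13.5. Its window (chromosome 17, gene at 47505051 to 47599689) held 7 peaks in E13.5 het, 9 in E13.5 KO, 3 in E16.5 het, 3 in E16.5 KO, 3 at P0 and 4 at P3. The same 3 regions were in all 6 lists: start 2, a region inside the gene at 47511045 to 47511633, and one at the upper outer end of the neighbouring gene *Taf8*, which encodes a subunit of transcription factor TFIID. Between them, regions at 47521590 to 47522090, 47542032 to 47542542 and 47566082 to 47566604 were in both E13.5 lists and no later list. A region at 47555110 to 47555634 was in both E13.5 lists, in neither E16.5 list nor at P0, and again at P3. The E13.5 KO list held 2 more, at 47571515 to 47572015 and at 47598204 to 47598704, the second near an outer end of *Bysl*.

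*Ccnd1* encodes the D-type cyclin that many mitogens induce, and it lies on chromosome 7 (144929931 to 144939831). Its window held 2 peaks in E13.5 het, 2 in E13.5 KO, 1 in E16.5 het, 2 in E16.5 KO, 2 at P0 and 1 at P3. These similar counts came from different regions. A region inside the gene (144931681 to 144932194) was in the E13.5 lists only, and one inside it at 144937515 to 144938015 was at P0 only. Above the gene, a region at 144941310 to 144941864 was in both E13.5 lists, E16.5 KO and P3, and a second one at 144943108 to 144943648 was in both E16.5 lists and P0.

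*Ccnd2*, the last of the D-type cyclin genes, was the one gene of the 10 whose window was empty in some lists. It held 1 peak in E13.5 het, 2 in E13.5 KO, 2 in E16.5 het and 2 in E16.5 KO, and 0 at P0 and P3. Peaks in all 4 fetal lists and none at P0 or P3 were found in 47 of the 21887 protein-coding gene windows (0.215%), a pattern chosen after its values were seen. The regions inside the gene (chromosome 6, 127125162 to 127152188) turned over before birth: one at 127130271 to 127130786 was in the E13.5 lists only, and one at 127141947 to 127142639 was in E13.5 KO and both E16.5 lists. Another, 2545 bp above the upper outer end at 127154733 to 127155250, was in the E16.5 lists only. Beyond the window, 1 to 2 peaks lay between 10 and 25 kb from the gene in every list, 2 at P0 and 1 at P3.

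**Figure D2:**
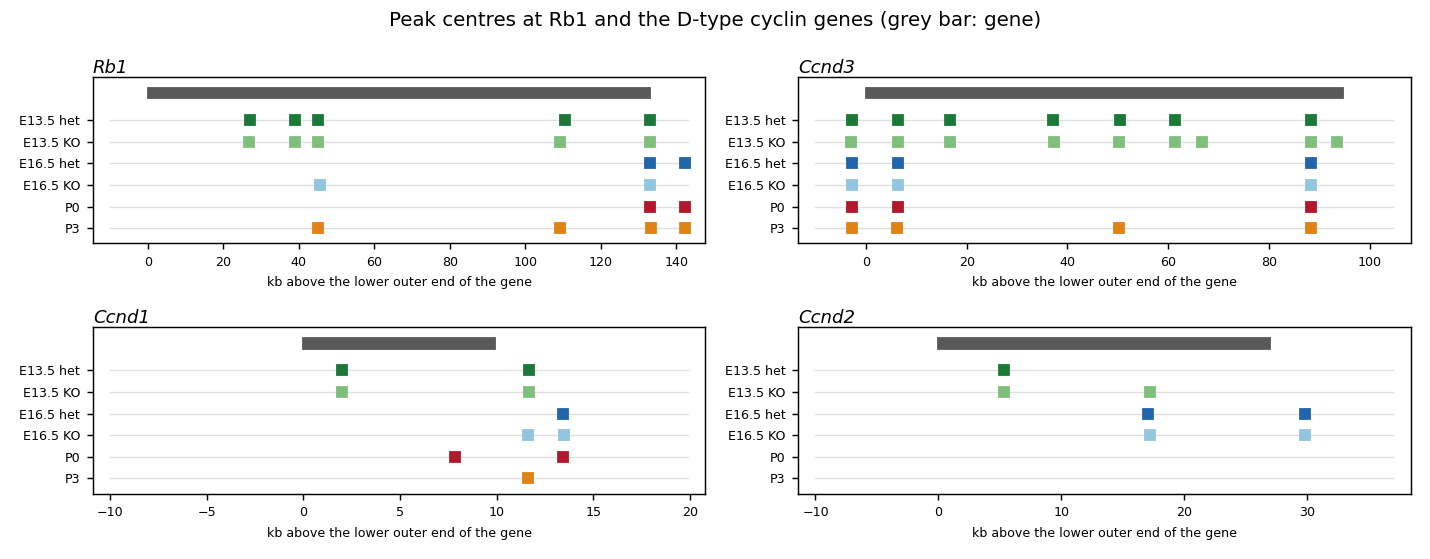
Squares mark the centres of ATAC-seq peaks in kb above the lower outer end of each gene (horizontal axis) in each of the 6 distinct lists (rows), and grey bars give the span of Rb1, Ccnd3, Ccnd1 and Ccnd2. Columns of squares in all 6 rows are seen at the upper end of Rb1 and at 3 places of Ccnd3, squares in the E13.5 rows only are seen inside all 4 genes, and the P0 and P3 rows of Ccnd2 are empty.

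The CDK inhibitor genes had short windows of 22.7 to 29.7 kb with few changes. *Cdkn1c*, the imprinted inhibitor gene (chromosome 7, 143458339 to 143461059), held 1 peak in each of the 6 lists, at its upper outer end (143460890 to 143461390 in E13.5 het). *Cdkn1a* (chromosome 17, 29090979 to 29100722) held 2 peaks in each E13.5 list and 1 in each of the other 4. The peak not seen after E13.5, at 29080678 to 29081254, lay 9725 bp below the lower outer end of *Cdkn1a*, at the edge of the window.

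*Cdkn1b* encodes the p27 inhibitor and had the densest window per length in every list, at 11.9 peaks per 100 kb up to P0 and 7.96 at P3. It held 3 peaks in each list from E13.5 to P0 and 2 at P3 (chromosome 6, gene at 134920401 to 134925525). The start and a region at the lower outer end of *Lockd*, a lncRNA gene named for its place downstream of *Cdkn1b* (134928411 to 134929142), were in all 6 lists. The region between them, at 134926728 to 134927461, was in 5 lists and missing at P3. *Cdkn2b* (chromosome 4, 89306289 to 89311032) held 2 peaks in E13.5 het, 2 in E13.5 KO, 1 in E16.5 het, 2 in E16.5 KO, 1 at P0 and 1 at P3. A region below the gene at 89303413 to 89304009 made the difference: it was in both E13.5 lists and E16.5 KO, and in none of the other 3 lists.

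No region of the E-type cyclin windows was lost at a later stage. *Ccne2* (chromosome 4, 11190433 to 11204779) held 1 peak in each of the 6 lists, 689 bp or more above its lower outer end (11191191 to 11191691 in E13.5 het). It lies at an outer end of the lncRNA gene *A630034I12Rik* as well, and the lists do not tell which of the 2 genes it belongs to. *Ccne1* (chromosome 7, 38097984 to 38107490) held 1 peak in each E13.5 list and 2 in each of the 4 later lists. The added region, 4448 bp beyond the start at 38111938 to 38112486, was centred within 48 bp in E16.5 het, E16.5 KO, P0 and P3 and was absent from both E13.5 lists. It was the one region of the 10 windows that was absent at E13.5 and present in every later list.

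**Figure D3:**
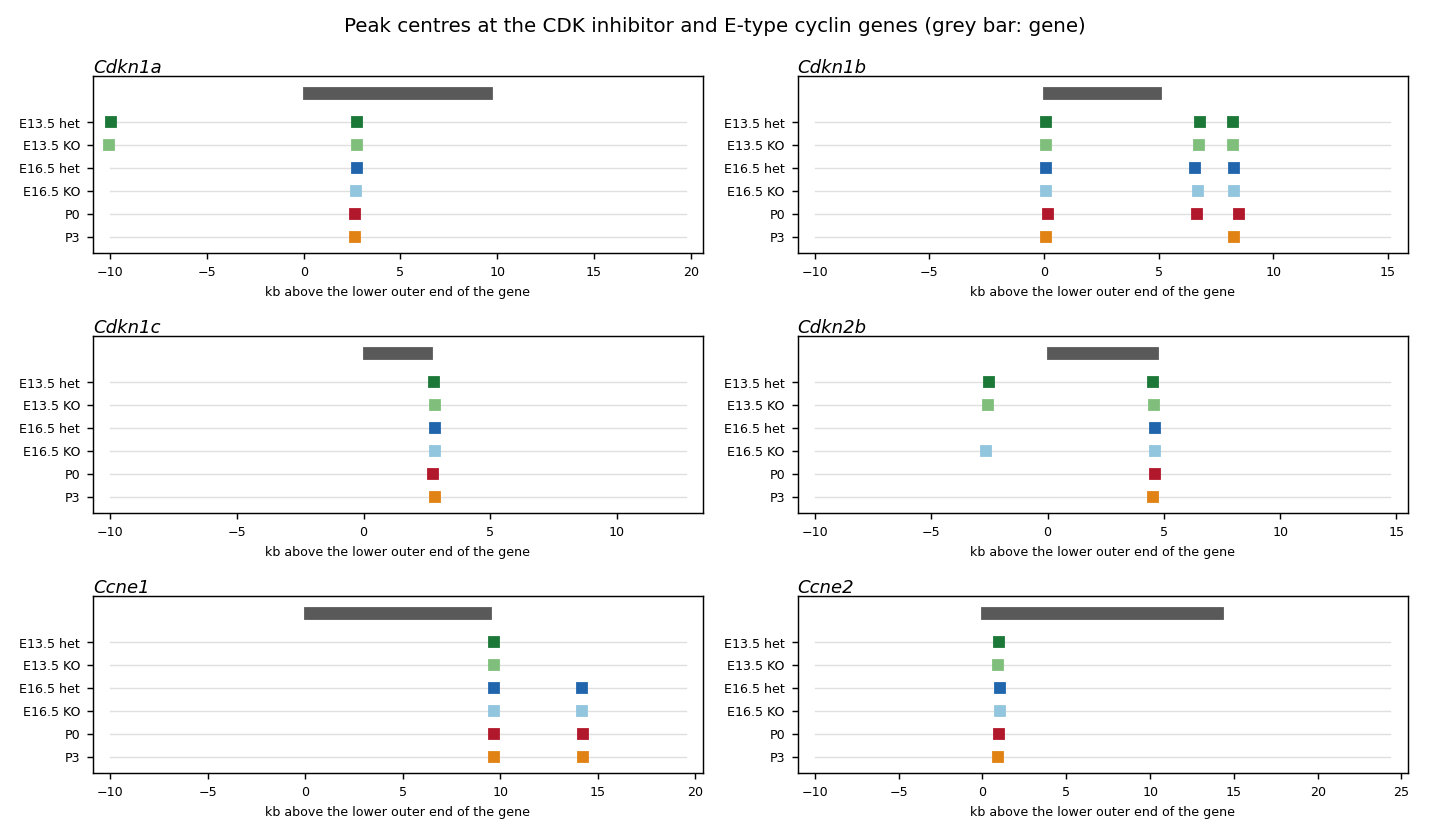
Squares mark the centres of ATAC-seq peaks in kb above the lower outer end of each gene (horizontal axis) in each of the 6 distinct lists (rows), and grey bars give the span of the 4 CDK inhibitor genes, Ccne1 and Ccne2. Every gene has 1 column of squares through all 6 rows at a start or outer end, Cdkn1b has a second one, and Ccne1 has a column in the 4 rows from E16.5 on.

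When overlapping peaks of the 6 lists were joined into regions, the 10 windows held 34 regions. Of these, 11 were in all 6 lists (32.4%, beside 26.7% of the 53957 regions in windows of all protein-coding genes). Another 11 were seen at E13.5 and no later stage (32.4%, beside 19.0%), and 8 of them were in both E13.5 lists (23.5%, beside 8.6%). By contrast 5 regions were absent from both E13.5 lists (14.7%, beside 38.8%), 3 were seen at E16.5 or P0 only (8.82%, beside 26.0%) and 0 at P3 only (beside 3.27%). Regions at E13.5 and P3 but in no E16.5 or P0 list numbered 2, at *Rb1* and *Ccnd3* (5.88%, beside 1.77%). A stage counts here when either genotype held a peak. The *Rb1* region was in E13.5 KO and not in E13.5 het, so by the het lists alone it was at P3 only. Without *Rb1* and *Ccnd3*, 3 of the remaining 18 regions were at E13.5 and no later stage (16.7%), which is under the share over all genes, and 4 were absent from both E13.5 lists (22.2%).

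Within 1000 bp of the start of any protein-coding gene, or of an outer end for genes with no listed start, lay 10 of the 34 regions. In all 6 lists were 9 of the 10, beside 70.6% of such regions over all protein-coding genes, and the exception was the *Lpar6* site inside *Rb1*. None of the 10 was an E13.5 region without a later peak, beside 3.62%, and none was absent from both E13.5 lists, beside 13.7%. Of the other 24 regions, 2 were in all 6 lists (8.33%, beside 9.44%), 11 were at E13.5 and no later stage (45.8%, beside 25%), and 5 were absent from both E13.5 lists (20.8%, beside 48.7%). Among the 24 were the E13.5 regions 933 bp from an outer end of *LTO1*, at *Ccnd1*, and 627 bp from one of *Bysl*, at *Ccnd3*, since these neighbours have a listed start farther away. Of these 11 E13.5 regions, 5 lay at *Ccnd3* and 3 at *Rb1*, and the rest lay singly at *Cdkn1a*, *Ccnd1* and *Ccnd2*. The D-type cyclin genes held 7 of the 11, with 16 of the 34 regions. The E-type cyclin genes held 0 of the 11, with only 3 of the 34 regions. Regions of 1 gene share their locus and are not independent of each other. Further genes reached into the windows, and the peaks are not assigned between them and the 10: *Rcbtb2* and *Mir687* at *Rb1*, *Gm33663* at *Cdkn1c*, *Gm12610* at *Cdkn2b*, *9330179D12Rik* at *Ccnd2*, *Gm41590* at *Ccnd3*, *Gm30771* at *Ccne1* and *Ints8* at *Ccne2*.

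**Figure D4:**
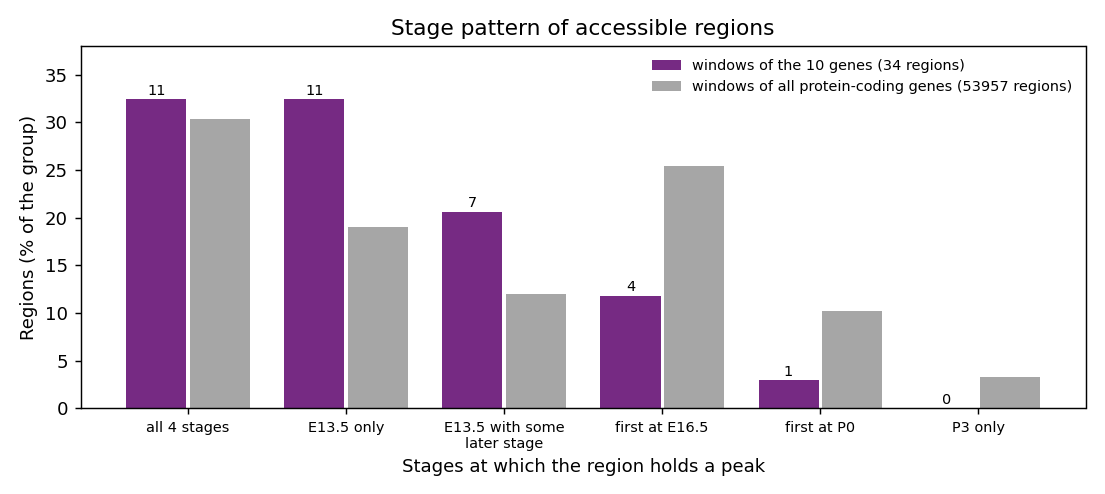
Bars give the share of accessible regions (vertical axis, percent) by the stages at which they hold a peak in either genotype (horizontal axis), for the 34 regions of the 10 windows (purple, with their number) and 53957 regions in windows of all protein-coding genes (grey). Regions of E13.5 only make up 32.4% against 19.0%, and regions first seen at E16.5 make up 11.8% against 25.4%; 8 of the 11 E13.5 regions lie at Rb1 and Ccnd3.

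Most peaks of the 10 windows were called in both genotypes at both fetal stages. MORC1 is a nuclear ATPase known for repressing transposons in the male germ line. At E13.5, 24 of 25 het peaks (96.0%, 95% Wilson interval 80.5 to 99.3) overlapped a KO peak, and 24 of 28 KO peaks (85.7%, 68.5 to 94.3) overlapped a het peak, beside 78.7% and 80.4% of the whole lists. At E16.5, 16 of 17 het peaks (94.1%, 73.0 to 99.0) and 16 of 19 KO peaks (84.2%, 62.4 to 94.5) were shared, beside 81.4% and 76.5%. These intervals are counting error over peaks only. They treat peaks as independent, whereas peaks cluster within genes, with 7 of the 25 E13.5 het peaks at *Ccnd3* and 5 at *Rb1*. The intervals thus do not measure the uncertainty of the sharing. Centres of shared peaks lay a median of 21 bp apart in the E13.5 lists, beside 26 bp over all shared peaks, and 19 bp in the E16.5 lists, beside 34 bp. The whole lists include peaks far from genes. Windows of protein-coding genes held 70.0% of the E13.5 het list, 71.2% of E13.5 KO, 53.7% of E16.5 het and 53.3% of E16.5 KO. Shares and gaps over those windows alone are not given here, so the whole lists are not a like-for-like background. The difference between genotypes was not compared with that between replicate samples, which the lists do not hold.

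By gene, the KO window held more peaks than the het window at *Ccnd2* and *Ccnd3* at E13.5 (2 of 10, beside 14.5% of all genes) and at *Cdkn2b* and *Ccnd1* at E16.5 (2 of 10, beside 17.9%). It held fewer at none of the 10 genes at either stage, beside 13.8% and 12.0% of all genes. The KO peaks without a het counterpart at E13.5 were those of *Ccnd2* at 127142139 to 127142639, of *Rb1* at 73301726 to 73302226 and the pair at *Ccnd3* given above. At E16.5 they were those of *Cdkn2b* at 89303413 to 89303913, of *Ccnd1* at 144941310 to 144941810 and of *Rb1* at 73238208 to 73238708. Each of these 3 E16.5 KO peaks lay in a joined region that both E13.5 lists held, although the *Rb1* peak overlapped the E13.5 peaks at its edge only. The share of all E16.5 KO peaks without a het counterpart that lie in such regions is not given here, so nothing is read from this count. The sole het peaks without a KO counterpart were both in the *Rb1* window, at 73303174 to 73303674 at E13.5 and at 73334905 to 73335405 at E16.5.

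Other genes of the cell cycle were examined in the same way, from a list of 42 genes that encode RB1 relatives, E2F factors, CDKs, other cyclins and inhibitors, and replication proteins. A start peak was in all 6 lists for 38 of the 42, in no list for 0 and in some for 4. The shares over all protein-coding genes were 54.0%, 31.8% and 14.1%. The 4 with a start peak in some lists were *Cdk6*, *Myc*, *Mycn* and *Tfdp2*. *Cdk6*, the kinase partner of D-type cyclins, held a start peak in E13.5 het and both E16.5 lists and in none of the others, and its window held 7 peaks in E13.5 het, 6 in E13.5 KO, 6 in E16.5 het, 7 in E16.5 KO, 1 at P0 and 3 at P3. *Mycn*, a growth-promoting transcription factor gene, held a start peak in the 4 fetal lists, and its window held 2, 3, 1 and 1 peaks there and 0 at P0 and P3. *Myc* lacked its start peak at P0 alone, and *Tfdp2*, which encodes an E2F partner, had one in E13.5 KO alone. From E13.5 to E16.5, 4 of the 42 windows held fewer peaks in both genotypes, beside 13.3% of all protein-coding genes, and 5 held more, beside 14.9%. At P0, 8 held fewer than in both E16.5 lists, beside 8.99% of all genes, and 8 more, beside 17.9%. At P3, 8 held fewer than in both E13.5 lists, beside 20.0%, and 0 more, beside 12.7%.

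Likeness between genes was measured as the sum of absolute differences of the 6 window counts. Up to 3 nearest listed genes are named, the first in alphabetical order where more were tied. The tied genes numbered 9 for *Ccnd1*, 6 for *Ccnd2*, 5 each for *Cdkn1c*, *Ccne1* and *Ccne2*, and 4 for *Cdkn1b*. *Cdkn1c* and *Ccne2*, with 1 peak in each list, had the same counts as *Ccna2*, *Mcm3* and *Mcm6*, and as 2236 other protein-coding genes in all. The nearest listed genes differed by 1 peak for *Cdkn1a* (*Ccna1*, *Mcm5* and *Rbl1*) and *Cdkn1b* (*Cdkn2a*, *Cdkn2c* and *Mcm7*). They differed by 2 for *Cdkn2b* (*Ccna1*, *Mcm5* and *Rbl1*), *Ccnd1* (*Ccnb1*, *Ccnb2* and *Cdc25a*) and *Ccne1* (*Ccnb1*, *Ccnb2* and *Cdk2*). For *Ccnd2* the sum was 4 (*Ccna1*, *Cdkn3* and *Mcm4*) and for *Rb1* 6 (*E2f1*, *E2f7* and *Fbxw7*), and none was within 6 of *Ccnd3*. The same 6 counts as *Ccnd2* were found in 1 other protein-coding gene, and those of *Rb1* in 0.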

How the data were processed

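Germ cells of 16 samples, 2 for each of 8 groups of stage and genotype, were measured by ATAC-seq, and groups were taken from the sample titles. Per the file contents, the authors deposited 1 list of peak positions per group, with no height, score or p-value, and nearly all peaks have the same width. Per the submitters' processing notes, the build was mm10 and the tools named include cutadapt 1.18, Bowtie2 2.3.4.1, deepTools 3.5.0 and HOMER 4.10. The peak threshold, and any pooling of the 2 samples behind a list, are not given in the sources used here. Because width is fixed, breadth cannot be read from these lists, and the number of peaks depends on depth and threshold.

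Positions are written 1-based and were set against the RefSeq gene table and promoter table of GRCm38.p6. Of 43774 protein-coding gene ends, 25.6% to 27.3% had a peak 250 bp or less away, against 2.44% to 3.31% after moving the ends by 10 kb. Peaks overlapping gene bounds plus 10 kb by at least 1 bp were counted, shared peaks and joined regions required an overlap of at least 1 bp, and start peaks lay within 1000 bp. No model was fitted. Counts equalled those of bedtools 2.31.1 for all 21887 windows in 6 lists, and on simulated data all planted counts in 200 windows and patterns in 300 regions were found (Python 3.11.15, pandas 2.3.3).

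The 10 genes are a list of names that uses no measured value, but it, the other gene lists and the comparisons were chosen with earlier results of these data known. All 10 genes are named. Of the 42 other cell cycle genes, those whose start peak differed between lists are named, and for each of the 10 genes up to 3 of the nearest by window counts, where the sum of differences was at most 6. Neighbouring genes are named where they overlap a window.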

Additional observations from a re-analysis of the deposited data

How the results depend on the processing

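No paired analysis was possible because the lists give positions for a group and no values of single replicates, and leaving out replicates was not run for the same reason. None of the values has a test, so counts were compared by a factor of 1.5, and shares and ratios by the 95% interval of the reported value. With bounds plus 25 kb, the totals of the 10 windows became 39 (E13.5 het), 43 (E13.5 KO), 35 (E16.5 het), 40 (E16.5 KO), 35 (P0) and 28 (P3), as a wider window must hold at least as many peaks. With no margin the totals that moved were those of E16.5 het (10), E16.5 KO (11) and P0 (10). Leaving out *Rb1* and *Ccnd3*, chosen after seeing the data, gave 13, 14 and 9 for E13.5 het, E13.5 KO and P3, and left 7 regions in all stages and 3 at E13.5 only, as fewer genes hold fewer peaks. The ratio of P3 to P0 totals, reported as 1.06, reversed to 0.8 with 25 kb and to 0.818 without *Rb1* and *Ccnd3* and was 1.6 per 10000 peaks of the list; the cause was not tested. Of the differences for single genes (E16.5 het minus E13.5 het) under these settings, 29 were equal to the reported value, 11 were not and 0 changed sign: *Rb1* under 3 settings, *Cdkn1a*, *Ccnd2* and *Ccne1* under both other margins, *Cdkn1b* with 25 kb and *Cdkn2b* with no margin. The E16.5 to E13.5 ratios ranged over all alternatives from 0.512 to 0.923 in het cells and from 0.47 to 1.0 in KO cells. Requiring the start within 500 or 250 bp left 7 of 10 genes in each list, without *Ccne2*. The shares of peaks common to both genotypes stayed within their intervals under both other overlap rules. Regions seen at E13.5 only numbered 9 to 11, and those absent at E13.5 5 to 7, for all 10 genes under the other ways of joining and of combining genotypes. With 1 list per group and no peak height, a region missing from a list may lie just under its threshold.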

Other observations

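Between 10 and 25 kb from the 10 genes, a zone outside the windows described above, the lists held 14 (E13.5 het), 15 (E13.5 KO), 18 (E16.5 het), 21 (E16.5 KO), 19 (P0) and 11 (P3) peaks in all. The order of the stages there was not that of the windows, with the E16.5 and P0 lists above both E13.5 lists. *Ccne1* held 2 peaks in this zone in E13.5 het, 1 in E13.5 KO, 4 in each E16.5 list, 3 at P0 and 2 at P3. *Cdkn1c*, whose window held 1 peak in every list, had 3 in each E13.5 list and E16.5 het, 4 in E16.5 KO, 4 at P0 and 2 at P3. *Ccne2* had 0 in all 6 lists. This zone holds other genes, and peaks in it are not assigned to the 10.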
